A study of Mus musculus with 42 samples.

Results

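Polycomb repressive complex 2 (PRC2) methylates lysine 27 of histone H3, and the RNA levels of 10 genes for its subunits were followed through the conversion of mouse embryonic stem cells (ESCs) into anterior definitive endoderm (ADE). The genes were chosen by name as core subunits (Ezh2, Ezh1, Eed, Suz12 and Rbbp4) and accessory subunits (Jarid2, Aebp2, Mtf2, Phf1 and Phf19). All 10 were measured, of 20972 named genes on the arrays, by 16 probes that carry their RefSeq accessions. Each gene was represented by its brightest probe over all arrays, and these 10 probes were well above background on 42 of 42 arrays.

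All RNA came from a single dual reporter ESC line, in which GFP is knocked in at Gsc, a primitive streak and mesendoderm gene, and RedStar at Hhex, an endoderm gene. The untreated groups were ESCs cultured with LIF, unsorted d2 cells, and 9 populations sorted on the reporters, named G for Gsc and H for Hhex: d3 G-, d3 G+, d4 G-, d4 G+, d5 G-, d5 Glow, d5 Ghigh, d6 G+H- and d6 G+H+. A second series of d6 ADE cultures, whose labels name no sort, consisted of Control (DMSO before and during differentiation), ADE_EPZ (DMSO before, 2.5 µM EPZ6438 during) and ES_EPZ (2.5 µM EPZ6438 before, DMSO during). EPZ6438 is an inhibitor of the EZH2 methyltransferase. Each of the 14 groups has 3 arrays from separate experiments. All comparisons rest on cells of this line, and the sorts rest on reporters of just these loci. Comparisons of a sorted population with d2 or ESCs set sorted cells against unsorted d2 cells or against ESCs, for which no sort is described. An effect of the sort itself was not tested.

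Values are deposited log2 intensities of single-colour arrays, and a difference of 1 is a 2-fold change in signal. The scanner software placed 24459 to 40398 probes of an array well above background, the mean correlation of an array with the others of its group was 0.9817 to 0.9915, and none stood apart. At the start and end of the untreated course the marker lists followed the labels. The mean log2 intensity of 8 pluripotency genes lay between 12.67 and 13.50 in the ESC arrays and between 6.20 and 6.47 in the d6 G+H+ arrays. That of 4 endoderm genes (Foxa2, Sox17, Cer1 and Hhex) lay between 5.59 and 5.77 and between 13.59 and 13.76. In the d6 G+H- arrays the endoderm mean lay between 13.26 and 13.68, which overlapped that of d6 G+H+. The untreated groups were scanned in 2 runs, with replicates 1 and 2 in the first and replicate 3 in the other. The EPZ6438 series was scanned in a run of its own and read with another version of the scanner software. Run, software version and series thus cannot be told apart for it. A gene is said to have passed, risen or fallen where the limma p, adjusted over all probes, was at most 0.01, and to have been called where the log2 fold change was also at least 1.5 in size.

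In the complex, EZH2 or its paralogue EZH1 carries the catalytic SET domain and is active only when bound to EED and SUZ12. EED binds trimethylated lysine 27 and stimulates the enzyme, SUZ12 is the scaffold on which accessory subunits assemble, and RBBP4 is a histone chaperone that also serves in other chromatin complexes. The accessory subunits form alternative assemblies, one with JARID2 and AEBP2 and another with a Polycomb-like protein, PHF1, MTF2 or PHF19, which bind CpG-rich DNA and help to recruit the complex. EZH2 is the form typical of dividing cells and ESCs, and EZH1 that of many cells which have left the cycle. ESCs can live without PRC2, but differentiate poorly when it is lost.

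The genes of 4 core subunits followed different courses in the same cells: Eed and Suz12 fell, Ezh2 stayed near its ESC level and Ezh1 dipped and rose again. Their promoters are shown for that reason. Each is the 300 bases from 250 before to 50 after the start of transcription in RefSeq, in build GRCm38.p6, written along the strand of the gene. The capitals mark the E2F motif, searched on either strand as TTTCCCGC, TTTCGCGC, TTTGCCGC or TTTGGCGC.
Eed (chr7:89980927-89981226, minus strand): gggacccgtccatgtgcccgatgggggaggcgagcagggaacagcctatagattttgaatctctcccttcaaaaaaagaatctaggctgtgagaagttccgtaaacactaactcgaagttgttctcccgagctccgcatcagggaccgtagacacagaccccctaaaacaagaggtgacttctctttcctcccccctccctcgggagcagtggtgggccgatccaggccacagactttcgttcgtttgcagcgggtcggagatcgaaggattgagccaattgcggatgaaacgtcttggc
Suz12 (chr11:79992856-79993155, plus strand): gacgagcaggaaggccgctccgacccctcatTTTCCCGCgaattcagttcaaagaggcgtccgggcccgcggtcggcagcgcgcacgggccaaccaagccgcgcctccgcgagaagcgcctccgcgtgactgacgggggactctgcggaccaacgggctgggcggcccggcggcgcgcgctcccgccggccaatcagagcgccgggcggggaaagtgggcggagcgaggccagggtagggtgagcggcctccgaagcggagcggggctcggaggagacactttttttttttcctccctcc
Ezh2 (chr6:47594981-47595280, minus strand): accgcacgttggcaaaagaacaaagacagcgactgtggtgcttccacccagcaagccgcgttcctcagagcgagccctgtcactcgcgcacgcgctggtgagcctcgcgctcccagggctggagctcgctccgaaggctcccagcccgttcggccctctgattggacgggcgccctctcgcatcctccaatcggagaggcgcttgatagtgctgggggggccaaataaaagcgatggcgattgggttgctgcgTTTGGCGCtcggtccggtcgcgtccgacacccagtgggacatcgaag
Ezh1 (chr11:101226414-101226713, minus strand): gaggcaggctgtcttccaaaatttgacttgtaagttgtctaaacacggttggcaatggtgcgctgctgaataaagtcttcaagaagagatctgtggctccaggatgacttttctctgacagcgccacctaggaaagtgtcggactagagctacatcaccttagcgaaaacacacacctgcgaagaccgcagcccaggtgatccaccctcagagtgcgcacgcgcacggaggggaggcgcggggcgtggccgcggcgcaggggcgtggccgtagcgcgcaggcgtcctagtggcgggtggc
The motif was found in the promoters of Ezh2 and Suz12, and not in these windows of Eed and Ezh1. Among 14 promoters listed for the 10 genes, that of Phf19 also held it, so that 3 members had it, against 2.26% of all 32851 promoters in the table and 5.23% of those with at least as many CG as the median member promoter. The number of CG in the window was 41 for Suz12, 31 for Ezh2, 23 for Ezh1 and 17 for Eed, where the median of all promoters was 7. Members with the motif (Ezh2, Suz12 and Phf19) did not share a course over the differentiation.

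Over the 11 untreated groups, 8 of 10 members differed in a moderated F test, where 64.8% of the 15051 probes above background on all arrays did so. The members that did not pass were Ezh2 (adjusted p = 0.531) and Phf1 (adjusted p = 0.0225). The span between the lowest and the highest group mean was 2.11 on the log2 scale for Eed, 1.81 for Mtf2, 1.59 for Ezh1, 1.56 for Jarid2, 1.45 for Phf19 and 1.16 for Aebp2, and between 0.64 and 0.77 for Phf1, Suz12 and Rbbp4. The median span of all these probes was 0.94. Ezh2 spanned 0.38, and 6.5% of the probes had a smaller span. The RNA of Ezh2 was thus among the steadier ones measured, while that of its partner Eed was among the more variable. Ezh1, the other catalytic gene, was not steady, as 77.8% of the probes had a smaller span.

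**Figure D1:**
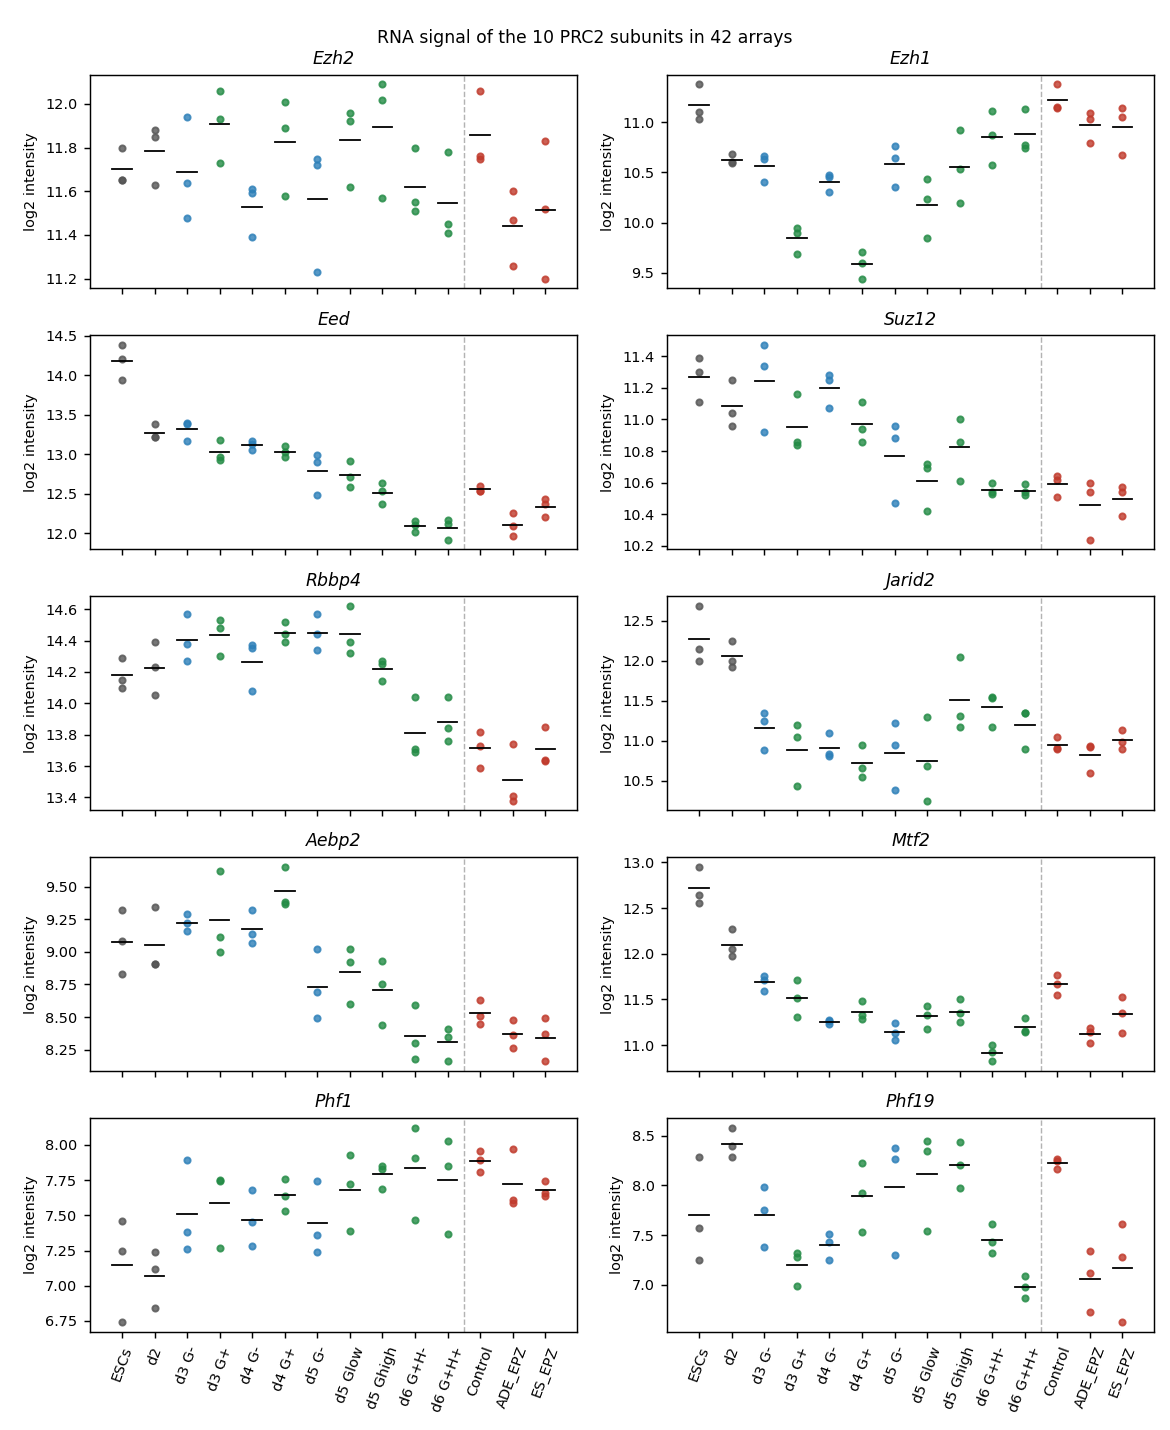
Log2 intensity (y axis, a scale of its own for each gene) of the 10 subunit genes in the 14 groups (x axis), with a point for each of 42 arrays and a line for the group mean (n = 3). Grey marks ESCs and d2, blue G- populations, green populations positive for Gsc and red the EPZ6438 series right of the dashed line. Eed declined from 14.18 in ESCs to 12.07 in d6 G+H+, while Ezh2 kept within 11.53 and 11.90 over the untreated groups.

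Between ESCs and d6 G+H+, the start and end of the untreated differentiation, 5 of 10 members passed and all 5 fell, where 41% of the probes above background passed and 20.2% passed and were lower. The median change of the members was -0.72, and that of these probes -0.01. Eed and Mtf2 met the fold threshold as well, as 9.84% of all 29123 probes with an accession did. In RNA from populations of cells, fewer cells that use a gene and less RNA per cell cannot be told apart.

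Among the core subunits, Eed fell most. Its log2 intensity was 14.21, 13.94 and 14.38 in the 3 ESC arrays and 11.92, 12.17 and 12.12 in the d6 G+H+ arrays. The groups were far apart, with every d6 array under every ESC array. The difference was -2.11 (standard error 0.13, adjusted p = 7.97e-15), a 4.32-fold lower signal, and was -2.03 within the first scan run and -2.26 within the second.

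Eed fell early, and its group means at d5 and d6 were lower still. At d2 it was already lower than in ESCs by -0.90 (adjusted p = 1.14e-05), with 13.38, 13.22 and 13.22 in the 3 arrays. It then remained between group means of 13.02 and 13.32 through d3 and d4, and at d5 between 12.51 and 12.80. No later step between neighbouring populations passed for Eed. The labels give only a replicate number, and number 3 was scanned in another run than 1 and 2. With that number as a block, Eed fell from d4 G+ to d5 Ghigh by -0.52 (adjusted p = 0.00753) and from d5 Ghigh to d6 G+H+ by -0.45 (adjusted p = 0.00891). Deviations of same-numbered arrays from their group means correlated there at 0.17 and 0.12 at lowest. Eed had fallen relative to ESCs in all 10 later populations.

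Suz12 fell less. It read 11.39, 11.30 and 11.11 in ESCs and 10.54, 10.52 and 10.59 in d6 G+H+, a difference of -0.71 (standard error 0.14, adjusted p = 0.000191). The d6 arrays lay close together and under all ESC arrays. Before d6 it had fallen in d5 Glow, by -0.65 (adjusted p = 0.000844), which was lost without d5 Glow replicate 3. With the replicate block d5 G- (-0.49, adjusted p = 0.00445) and d5 Ghigh (-0.44, adjusted p = 0.00709) passed as well. Replicate numbers did not pair arrays there, as deviations of same-numbered arrays from their group means correlated at 0.05 and 0.08 at lowest. Across the 11 untreated group means, Suz12 and Eed had a Pearson correlation of 0.88, the highest of any pair of members, given as a description of means that share their arrays.

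Ezh2 read 11.80, 11.65 and 11.65 in ESCs and 11.41, 11.78 and 11.45 in d6 G+H+, and the groups overlapped. The difference was -0.16, with a 95% interval from -0.51 to 0.20 (adjusted p = 0.696). It did not pass in any of the 27 pairwise comparisons made. Rbbp4 read between 14.10 and 14.29 in ESCs and between 13.76 and 14.04 in d6 G+H+, a difference of -0.30 that did not pass (adjusted p = 0.1). A second, dimmer Rbbp4 probe rose from d2 to d3, by 0.88 in G- (adjusted p = 0.00121) and by 0.80 in G+ (adjusted p = 0.000935). The brighter probe gave 0.19 (adjusted p = 0.671) and 0.22 (adjusted p = 0.402) there and did not pass. The probes of this gene thus went the same way and differed in size.

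Among the accessory subunits, Mtf2, a Polycomb-like gene that is prominent in ESCs, fell most. It read 12.95, 12.56 and 12.64 in ESCs and 11.14, 11.30 and 11.15 in d6 G+H+. The groups did not overlap, and the difference was -1.52 (standard error 0.12, adjusted p = 6.99e-12), with -1.54 and -1.49 within the scan runs. Its lowest mean was in d6 G+H-, at 10.91, which was -1.81 from ESCs (adjusted p = 1.36e-13). Mtf2 had already fallen at d2, by -0.62 (adjusted p = 0.00113), although not without ESCs replicate 1 or d2 replicate 1, and it fell in all 10 later populations. With Eed it was one of just 2 members to do so. A dim second probe, made to another Mtf2 transcript and above background on 17 of 42 arrays, did not pass in any of these populations. It gave -0.58 in d6 G+H+ (adjusted p = 0.226) and went the other way in d5 G-, at 0.19 (adjusted p = 0.891), where the brighter probe gave -1.58.

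The other Polycomb-like genes took other courses. Phf1 read 7.25, 7.46 and 6.74 in ESCs and 7.91, 8.12 and 7.47 in d6 G+H-, and rose there by 0.69 (adjusted p = 0.00938). This was the only rise of a member against ESCs that passed, and it was lost without either of ESCs replicates 1 and 3 or d6 G+H- replicates 1 and 2. A dimmer Phf1 probe gave 0.37 there (adjusted p = 0.168). In d6 G+H+ the difference was 0.60 (adjusted p = 0.0235) and in d5 Ghigh 0.64 (adjusted p = 0.019). Both passed with slide as a fixed block, slide as a random block or replicate number as a block, at adjusted p values from 0.000786 to 0.00309. Replicate numbers did not pair arrays in these 2 comparisons (lowest correlations -0.05 and 0.08). With the replicate block Phf1 also rose in d4 G+ against ESCs, by 0.50 (adjusted p = 0.00944), and from d2 to d3 G+, by 0.52 (adjusted p = 0.00834).

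Phf19 went up and down between populations. It read 7.57, 7.25 and 8.29 in ESCs, 8.40, 8.58 and 8.29 at d2, and 7.32, 7.28 and 6.99 in d3 G+. From d2 to d3 G+ it fell by -1.23 (adjusted p = 0.000989), with no overlap. At d5 the Ghigh arrays were back at 8.44, 8.21 and 7.97, and d6 G+H+ at 6.87, 6.98 and 7.09 was lower again by -1.22 (adjusted p = 0.00132), which was lost without d5 Ghigh replicate 1. The ESC arrays of this gene were far apart, and d6 G+H+ against ESCs did not pass, at -0.72 (adjusted p = 0.0447).

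Jarid2, which binds DNA and modulates the enzyme, fell early and had its lowest levels at d4 and d5. It read 12.14, 12 and 12.68 in ESCs, 11.99, 11.92 and 12.25 at d2 and 10.43, 11.19 and 11.04 in d3 G+. The step from d2 to d3 G+ was -1.17 (adjusted p = 0.000569), and was lost without d3 G+ replicate 1. The lowest mean was 10.72 in d4 G+, at -1.56 from ESCs (adjusted p = 6.71e-06), and the gene was also low in d5 Glow, at -1.53 (adjusted p = 8.53e-06). In d5 Ghigh it read 11.17, 11.31 and 12.05, and the difference from ESCs was then -0.76 and did not pass (adjusted p = 0.0214). That difference passed with slide as a fixed (adjusted p = 0.00178) or random block (adjusted p = 0.00331). It also passed with the replicate block (adjusted p = 0.000533), where replicate numbers did not pair arrays (lowest correlation 0.08). The step from d4 G+ to d5 Ghigh, of 0.80, passed with the replicate block only (adjusted p = 0.00219). In d6 G+H+ it was lower than in ESCs by -1.07 (adjusted p = 0.000712), a call that was lost without ESCs replicate 3 or d6 G+H+ replicate 1.

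Aebp2, a zinc finger partner of JARID2 in the complex, did not pass against ESCs before d6 and had fallen at d6. Its difference from ESCs was 0.39 in d4 G+ (adjusted p = 0.126) and -0.37 in d5 Ghigh (adjusted p = 0.135). It read 9.32, 9.08 and 8.83 in ESCs, 9.37, 9.38 and 9.65 in d4 G+, 8.44, 8.75 and 8.93 in d5 Ghigh and 8.35, 8.41 and 8.16 in d6 G+H+. The step from d4 G+ to d5 Ghigh was -0.76 (adjusted p = 0.00614) and the difference of d6 G+H+ from ESCs -0.77 (adjusted p = 0.000546). The former was lost without any 1 of the d4 G+ arrays or of d5 Ghigh replicates 1 and 2, with slide as a fixed block (adjusted p = 0.023), in fits to fewer arrays and with the mean of both probes. A second probe, made to another Aebp2 transcript, gave -0.57 for d6 G+H+ and did not pass (adjusted p = 0.0173).

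**Figure D2:**
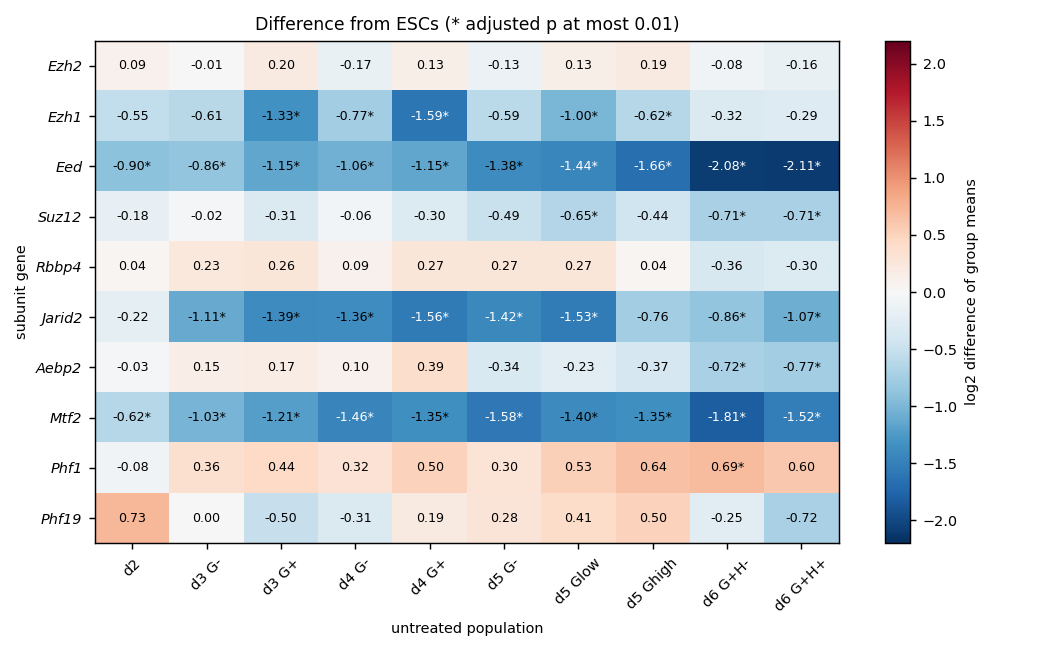
Log2 difference of group means from ESCs (colour and printed value) for the 10 subunit genes (rows) in the 10 later untreated populations (columns), with an asterisk where the adjusted p was at most 0.01. Eed and Mtf2 carry an asterisk in every column, Ezh2, Rbbp4 and Phf19 in none, and the only rise to carry one is Phf1 in d6 G+H-, at 0.69.

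The same order of events can be read by day from the counts against ESCs. At d2, 2 members had fallen, where 4.05% of the probes above background passed and were lower. In G- cells 3 had fallen at d3, 4 at d4 and 3 at d5 (backgrounds of 4.6%, 5.85% and 7.18%), and in G+ cells 4 at d3 and 4 at d4 (11.2% and 12.3%). At d5, 5 had fallen in Glow and 3 in Ghigh (11.5% and 12%). In d6 G+H-, 5 fell (17.7%) and 1 rose, where 37.4% passed in either direction. These comparisons share the ESC arrays. From d3 to d4, 0 members passed in G- and in G+, with 1 member at an unadjusted p under 0.05 in each (0.0199% and 0.0598% of the probes passed). From d4 to d5 in G- 0 passed and 4 had an unadjusted p under 0.05 (0.0266%). Between d2 and d3 G+, 4 fell (8.94% passed and were lower), namely Ezh1, Jarid2, Mtf2 and Phf19. The Ezh1 fall was lost without d3 G+ replicate 3 and with the mean of its probes. The Mtf2 fall was lost without d2 replicate 2 or d3 G+ replicate 1, in the fit to the groups compared and with the mean of its probes. Between d2 and d3 G-, 0 passed and 4 had an unadjusted p under 0.05 (4.31% of the probes passed), with Jarid2 at -0.90 (adjusted p = 0.0245), Mtf2 at -0.41 (adjusted p = 0.0498) and Phf19 at -0.72 (adjusted p = 0.147). Jarid2 passed there with slide as a fixed (adjusted p = 0.00282) or random block (adjusted p = 0.0036). It also passed with the replicate block (adjusted p = 0.000494), with a lowest correlation of same-numbered arrays of 0.1. Of the 4 genes that fell from d2 to d3 G+, Ezh1 alone differed between d3 G+ and d3 G- themselves.

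Genes of proliferation were lower at d6 as well. Of 16 such genes 11 fell between ESCs and d6 G+H+ and none rose, with a median change of -0.89. Of the probes above background 20.2% passed and were lower there. The subunits of the replicative helicase Mcm5 (-1.46) and Mcm3 (-1.44), the mitotic kinase gene Bub1 (-1.30) and the transcription factor gene E2f1 (-1.55) changed most. The mean log2 intensity over the 16 lay between 12.58 and 12.75 in the ESC arrays, between 12.30 and 12.79 in those of d2 and d3, between 12.39 and 12.64 in those of d4 and d5, and between 11.61 and 12.03 in those of d6. Eed, Mtf2 and Jarid2 had fallen before d6. The part of proliferation in the changes of the subunits was not tested.

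The sorted populations of a day ask whether the subunits differ between cells with and without Gsc. At d3 and at d4, Ezh1 was the only member of 10 that passed, and it was lower in G+ on both days. The background was 4.77% of the probes above background at d3 and 5.72% at d4, and 2.82% and 3.38% for lower.

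At d3 Ezh1 read 10.66, 10.63 and 10.40 in G- and 9.90, 9.95 and 9.69 in G+. At d4 it read 10.30, 10.45 and 10.47 in G- and 9.44, 9.71 and 9.60 in G+. Every G+ array was under every G- array on both days. The differences were -0.72 at d3 (standard error 0.17, adjusted p = 0.00893) and -0.82 at d4 (standard error 0.17, adjusted p = 0.0022), folds of 1.64 and 1.77. Within the first and second scan run the d3 difference was -0.72 and -0.70, and the d4 difference -0.79 and -0.87.

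The d3 call was a narrow one. It was lost without any 1 of the 6 arrays, at differences from -0.80 to -0.64, and with values recomputed from the scanner files. The d4 call was lost without d4 G- replicate 2 or 3 or d4 G+ replicate 1 or 3, at differences from -0.88 to -0.75. A second Ezh1 probe also passed at d4, with -0.63 (adjusted p = 0.00428), and gave -0.49 at d3 (adjusted p = 0.0382). Another Ezh1 probe, above background on 27 of 42 arrays, gave -0.16 at d4 (adjusted p = 0.991) and -0.31 at d3 (adjusted p = 0.891), and neither call held with the mean of all 3 probes.

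Pluripotency genes also differed in this sort: 5 of 8 fell in G+ against G- at d3 and 5 of 8 at d4. Of the probes above background 2.82% and 3.38% passed and were lower. The mean log2 intensity over the 8 lay between 10.65 and 11.23 in the d3 G- arrays and between 8.67 and 8.88 in those of d3 G+, and between 10.09 and 10.27 and between 7.63 and 8.35 at d4. Their part in the Ezh1 difference was not tested. Of the 16 proliferation genes 0 passed on either day, with 3 at an unadjusted p under 0.05 at d3 and 1 at d4.

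Over the whole course Ezh1 dipped and rose again toward its ESC level, and it was lowest in the G+ cells of d3 and d4. In cells without Gsc it had fallen at d4, by -0.77 (adjusted p = 0.0021), and stood at -0.61 in d3 G- (adjusted p = 0.0191) and -0.59 in d5 G- (adjusted p = 0.0178). The fall in d4 G- was lost without ESCs replicate 1 or d4 G- replicate 1 and in the fit to the groups compared. The d3 and d5 differences passed with the replicate block, where replicate numbers did not pair arrays (lowest correlations 0.01 and 0.05). At d2 Ezh1 was at -0.55 (adjusted p = 0.0497). In cells positive for Gsc it was lower than in ESCs (11.38, 11.03 and 11.10) by -1.33 in d3 G+ (adjusted p = 3.46e-07), by -1.59 in d4 G+ (adjusted p = 8.5e-09) and by -1 in d5 Glow (adjusted p = 3.34e-05). It then rose from d4 G+ to d5 Ghigh by 0.97 (adjusted p = 0.000607), to 10.53, 10.20 and 10.92, a call lost without d5 Ghigh replicate 3. It was then still lower than in ESCs, by -0.62 (adjusted p = 0.00765). That call was lost without ESCs replicate 1 or 3 or d5 Ghigh replicate 1 or 2, in fits to fewer arrays and with the mean of all probes. In d6 G+H+ Ezh1 read 10.74, 10.77 and 11.13, a difference of -0.29 from ESCs that did not pass (adjusted p = 0.279), with -0.45 and 0.03 within the scan runs. The order of its means was ESCs, d6 G+H+, d6 G+H-, d2, d5 G-, d3 G-, d5 Ghigh, d4 G-, d5 Glow, d3 G+ and d4 G+. The gap between neighbours in this order was larger than the larger of their SDs from ESCs to d6 G+H+ (0.29), from d5 Glow to d3 G+ (0.32) and from d3 G+ to d4 G+ (0.26), and smaller for the other 7 gaps. For Ezh2 it was smaller for all 10 gaps.

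The methyltransferase genes did not move together. With the ESC mean of each set to 0, Ezh1 minus Ezh2 was -0.63 ± 0.13 at d2, -0.60 ± 0.14 in d3 G- and -1.53 ± 0.04 in d3 G+ (SD, n = 3). It was -0.59 ± 0.20 in d4 G- and -1.71 ± 0.23 in d4 G+, and -0.14 ± 0.35 in d6 G+H+. At d5 it was -0.46 ± 0.46 in G-, -1.13 ± 0.44 in Glow and -0.81 ± 0.62 in Ghigh. By group means the balance thus lay furthest from that of ESCs toward Ezh2 in the G+ cells of d3 and d4. A d5 Glow array, at -1.54, lay in their range, and the balance was not tested. Ezh2 itself read 11.94, 11.64 and 11.48 in d3 G- and 11.93, 12.06 and 11.73 in d3 G+, overlapping groups with a difference of 0.22 (95% interval -0.14 to 0.57). At d4 its difference was 0.30 (-0.05 to 0.65).

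**Figure D3:**
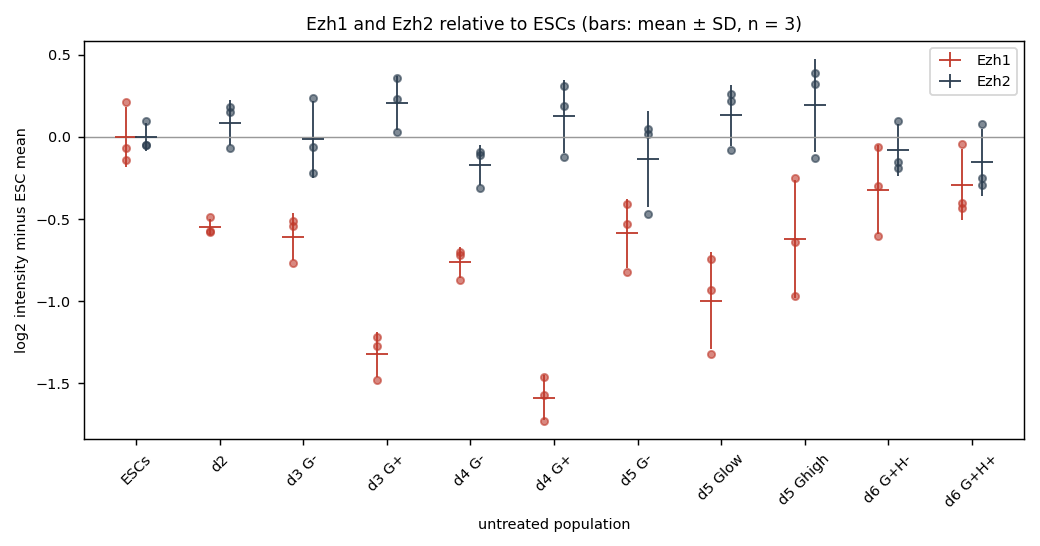
Log2 intensity of Ezh1 (red) and Ezh2 (dark) minus the ESC mean of the same gene (y axis) in the 11 untreated groups (x axis), with a point per array and bars for mean ± SD (n = 3). Ezh1 falls to -1.33 in d3 G+ and -1.59 in d4 G+ and stands at -0.29 in d6 G+H+, while Ezh2 stays near 0.

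At d5, 0 of 10 members passed between the mean of Glow and Ghigh and G- (4.65% of the probes above background passed in limma, and 0 members had an unadjusted p under 0.05). The Ezh1 difference was -0.22 (95% interval -0.52 to 0.08). Between d6 G+H+ and d6 G+H-, 0 members passed and 1 had an unadjusted p under 0.05, in a comparison in which 0% of the probes passed. That member was Mtf2, at 0.29 (adjusted p = 1), with 11.14, 11.30 and 11.15 in G+H+ and 10.82, 11 and 10.92 in G+H-. In the direct test of whether the sort difference changed between d3 and d4, 0 members passed, 1 had an unadjusted p under 0.05, and 0% of the probes passed. The change for Ezh1 was -0.10 (95% interval -0.60 to 0.39).

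The EPZ6438 series asks whether the RNA of the subunits responds when the enzyme is inhibited, before or during differentiation. With the inhibitor present during differentiation, 2 of 10 members passed against Control and both were lower, where 14.8% of the probes above background passed and 8.46% passed and were lower. These were the Polycomb-like genes Phf19 and Mtf2. The point estimates of all 10 members were under 0, with a median of -0.23, beside -0.06 for these probes.

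Phf19 read 8.27, 8.17 and 8.25 in Control, 7.12, 7.34 and 6.72 in ADE_EPZ and 7.28, 7.61 and 6.62 in ES_EPZ. The Control arrays were nearly equal and all treated arrays lay under them. The difference was -1.17 for ADE_EPZ (standard error 0.27, adjusted p = 0.00282), a 2.25-fold lower signal, and -1.06 for ES_EPZ (standard error 0.27, adjusted p = 0.0285), which did not pass. Each slide held 1 array of each regimen, and the differences within the 3 slides were -1.45, -1.13 and -0.93 for ADE_EPZ and -1.55, -0.98 and -0.66 for ES_EPZ. With slide as a random block the ES_EPZ difference passed (adjusted p = 0.00805).

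Mtf2 read 11.67, 11.55 and 11.77 in Control, 11.19, 11.14 and 11.02 in ADE_EPZ and 11.35, 11.53 and 11.13 in ES_EPZ. All ADE_EPZ arrays were under all Control arrays, and so were those of ES_EPZ. The difference was -0.54 for ADE_EPZ (standard error 0.12, adjusted p = 0.0028), with -0.53, -0.57 and -0.53 within the slides, and -0.33 for ES_EPZ (adjusted p = 0.202). The dim second Mtf2 probe gave 0.00 for ADE_EPZ (adjusted p = 0.998), and with the mean of both probes the difference was -0.27 and did not pass. The ADE_EPZ calls of Phf19 and Mtf2 were both lost without Control replicate 1, without Control replicate 3 or without ADE_EPZ replicate 3, and when only the 9 arrays of the series were fitted.

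The target of the inhibitor, Ezh2, read 12.06, 11.75 and 11.76 in Control, 11.47, 11.60 and 11.26 in ADE_EPZ and 11.52, 11.83 and 11.20 in ES_EPZ. The ADE_EPZ arrays lay under those of Control and the ES_EPZ arrays overlapped them. The differences were -0.42 (95% interval -0.77 to -0.06, adjusted p = 0.142) and -0.34 (-0.69 to 0.01, adjusted p = 0.423), and neither passed. Eed was -0.46 for ADE_EPZ (adjusted p = 0.0178). With slide as a fixed block both Ezh2 (adjusted p = 0.00762) and Eed (adjusted p = 0.00978) passed for ADE_EPZ, and the count rose to 4. Eed passed with slide as a random block too (adjusted p = 0.00641).

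In ES_EPZ against Control 0 members passed in limma and 2 had an unadjusted p under 0.05, where 0.784% of the probes above background passed. In the direct comparison of ADE_EPZ with ES_EPZ 0 members passed and 0 had an unadjusted p under 0.05 (0.372% of the probes passed), so that no difference between treatment before and during differentiation was shown for a subunit. For Phf19 that difference was -0.11 (95% interval -0.65 to 0.43) and for Mtf2 -0.22 (-0.47 to 0.03). Both comparisons with Control share its arrays.

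**Figure D4:**
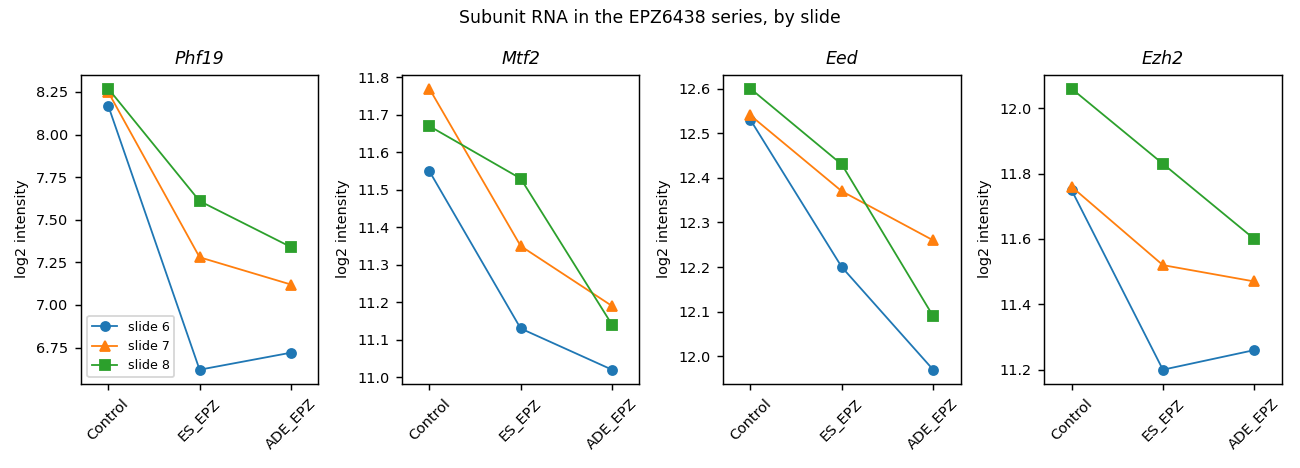
Log2 intensity (y axis, a scale of its own for each gene) of Phf19, Mtf2, Eed and Ezh2 in Control, ES_EPZ and ADE_EPZ (x axis), with a line joining the 3 arrays of each slide. On each of the 3 slides the ADE_EPZ array lies under the Control array for all 4 genes, by 0.93 to 1.45 for Phf19.

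Other genes moved in the same cultures, in which 14.8% of the probes above background passed. Of 16 proliferation genes 3 fell in ADE_EPZ against Control (Mcm3 -0.91, Mcm6 -0.81 and the topoisomerase gene Top2a -0.80) and none rose, and their mean log2 intensity lay between 12.09 and 12.23 in Control, 11.58 and 11.84 in ADE_EPZ and 11.60 and 12.04 in ES_EPZ. Of 4 endoderm genes 1 rose, Hhex by 2.23, with list means between 11.64 and 12.20 in Control and between 13.18 and 13.49 in ADE_EPZ. Of 8 pluripotency genes 1 rose, Zfp42 by 1.51, with list means between 6.69 and 7.19 and between 7.69 and 8.09. Of 6 primitive streak and mesendoderm genes 2 fell, Mixl1 by -3.34 and Eomes by -1.41, and their list means lay between 10.29 and 10.40 in Control and between 9.60 and 10.08 in ADE_EPZ. Of 4 visceral endoderm genes 1 rose, Apoa1 by 1.34, and of 3 neural and of 4 blood and endothelium genes 0 passed, with 1 and 2 at an unadjusted p under 0.05. The part of these changes in those of Phf19 and Mtf2 was not tested.

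Genes that work with or against PRC2 were measured in the same cells. Of 9 such genes (Rbbp7, Epop, Lcor, Lcorl, Ezhip, Kdm6a, Kdm6b, Ep300 and Crebbp), 1 rose and 2 fell between ESCs and d6 G+H+, with a median of 0.04, where 41% of the probes above background passed. The share of the list was thus not above that of all probes. Epop, which links PRC2 to Elongin BC in ESCs, fell by -2.73 (adjusted p = 9.43e-14). Ezhip, which encodes an inhibitor of EZH2, fell by -3.55 (adjusted p = 8.4e-10), with 1 of 3 d6 G+H+ arrays above background, so that the size of the fall is limited by the background. Kdm6b, a demethylase of the same lysine, rose by 2.58 (adjusted p = 5.19e-10), from a mean of 8.88 in ESCs to 11.46.

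Kdm6b and Ezhip also divided the sorted populations in which Ezh1 differed. In G+ against G-, Kdm6b rose by 1.25 at d3 (adjusted p = 0.00163) and by 1.12 at d4 (adjusted p = 0.00468), and Ezhip fell by -1.58 (adjusted p = 0.00494) and -1.65 (adjusted p = 0.00306), with 2 of 3 d4 G+ arrays above background and the same limit on its size. These were 2 of 9 genes on each day, against 4.77% and 5.72% of the probes. In ADE_EPZ against Control 0 of the 9 passed, with 2 at an unadjusted p under 0.05.

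PRC1, the other Polycomb complex, ubiquitylates histone H2A and can be recruited by the mark that PRC2 sets. Of 19 PRC1 genes 5 rose and 5 fell between ESCs and d6 G+H+, with a median of -0.16, near the 41% of the probes above background that passed. The Polyhomeotic gene Phc1 fell by -2.93, the RYBP homologue Yaf2 rose by 1.84, and Cbx2, a reader of the methyl mark, rose by 1.66. Cbx8, another such reader, rose too, from a signal that was not well above background in any ESC array. At d3, 2 of 19 passed (4.77% of the probes), as Bmi1 rose by 1.16 in G+ and Cbx6 fell by -0.90. At d4, 3 of 19 passed (5.72%), as Bmi1 rose by 1.08, and Phc1 and Cbx6 fell by -1.32 and -1.31. Bmi1 was the only gene of the list to pass in ADE_EPZ against Control, where 14.8% of the probes passed and it rose by 1.03 (adjusted p = 0.000568), and against ES_EPZ, by 1.20 (adjusted p = 0.0013).

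Since Ezh2 varied so little, genes with a like pattern were sought among 8150 probes that were above background on all arrays and had group means spanning at least 1. Over the 14 group means the highest Pearson correlations with Ezh2 were 0.92 for Cep126, 0.91 for Oxa1l, 0.89 for Nfx1, 0.84 for Zfp593 and 0.82 for Polq. The lowest were -0.93 for Ddr1, Marveld3 and Bik, and -0.92 for Arhgef16 and Rhbdf2. These values describe means that share their arrays and were picked as extremes from many probes. Ezh2 itself did not pass the F test over the untreated groups (adjusted p = 0.531), so the pattern matched was not shown to exceed the spread between arrays. The 14 means also include the EPZ6438 series, with its own scan run and software version. Among the members themselves, over the 11 untreated groups, the correlation of Ezh2 was highest with Rbbp4 and Phf19 (0.45 each) and lowest with Ezh1 (-0.55).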

How the data were processed

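Total RNA of 42 samples, 3 in each of 14 groups, was labelled with the dye Cy3 for Agilent mouse arrays. Per the labels and the study's methods, the authors read median foreground and background intensity from the scanner files, corrected them by normexp with an offset of 10, quantile normalised all arrays together with limma and deposited log2 intensity for every spot. The deposited log2 values were used, with spots of a probe averaged (432 of 55681 probes are printed more than once), and the lowest correlation of an array's deposited values with those recomputed from its scanner file was 0.999979. Groups and replicate numbers came from the labels. Names came from RefSeq accessions through a table of GRCm38.p6, which held 21865 of 23171 accessions. Member coordinates refer to that build, and promoter sequences are from RefSeq.

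Group means were estimated in a single limma 3.58.1 model (R 4.3.3) over all 42 arrays. Benjamini-Hochberg adjustment covered all 55681 probes of a comparison, and background shares were taken over probes with an accession. In comparisons of 3 with 3 arrays, exact permutation could not reach 0.05, and only limma p values are given throughout. They measure the spread between the arrays of 1 cell line. The number of arrays limits the precision. On simulated data the median estimates lay close to the changes put in, and the smallest changes put in rarely passed, so that a member that did not pass may still have changed by a small amount.

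All 10 members are named, each by its brightest probe, and other probes where they differ in direction in a comparison that passed. From each gene list at most 4 passing genes with the largest changes are named. For the pattern of Ezh2, the 5 highest and 5 lowest correlations are named. Further probes of Ezh1, Rbbp4, Aebp2 and Phf1 are given although they did not differ in direction. The members and lists were chosen with earlier results of these data known.

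Numbers were taken to pair arrays where all 3 correlations of same-numbered deviations exceeded 0.1, as in the sorts of a day (0.18 to 0.67). Slides did not follow replicate numbers in the EPZ6438 series. Alternatives were recomputed values, scaling by the 75th percentile, an offset of 50 or uncorrected background, quantile normalisation within each series, a filter on dim probes, fits to 1 series or to the groups compared, slide and replicate blocks, other thresholds, other probe rules and leaving out each array. The planned comparison of the EZH1 and EZH2 proteins was not made.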

Additional observations from a re-analysis of the deposited data

Results flagged for a closer look

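Phf19 differed between G+ and G- in opposite directions on neighbouring days. It was lower in G+ at d3, by -0.50 on the log2 scale (7.32, 7.28 and 6.99 in G+ against 7.75, 7.98 and 7.38 in G-), and higher in G+ at d4, by 0.50 (8.23, 7.53 and 7.92 against 7.51, 7.25 and 7.43). All 9 pairs of arrays were lower at d3 and all 9 were higher at d4. Neither difference passed (limma adjusted p = 0.476 and 0.454). The change between the days, tested directly, was 1.00 (standard error 0.38, 95% interval 0.24 to 1.77, unadjusted p = 0.012) and did not pass either (adjusted p = 1).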

How the results depend on the processing

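Of 5410 values of single members under an alternative, 5232 kept their direction and their side of the threshold, 94 no longer passed, 84 came to pass and 0 reversed. The count of members that passed between ESCs and d6 G+H+ was 5, all lower, and became 3 when only the compared groups were fitted and 2 with the fold threshold, and lay between 4 and 6 with an array left out. The single member at d3 (Ezh1) was lost, for a count of 0, with recomputed values, with 75th percentile scaling, in fits to the series or the groups, with the fold threshold and with the mean of all probes. At d4 the count was 0 in the fit to the groups, with the fold threshold and with the mean of probes. Leaving out an array gave 0 on every occasion at d3 and 0 to 1 at d4. For ADE_EPZ against Control the count of 2 became 0 in the fit to the series and with the fold threshold, 1 in the fit to the groups and with the mean of probes, 4 with slide as a fixed block, and 0 to 2 with an array left out. For ES_EPZ against Control the count of 0 became 1 with slide as a random block and at an adjusted p of 0.05. In the F test it lay between 8 and 9 with an array left out. Fits to fewer arrays have fewer residual degrees of freedom. The cause of the other changes was not tested.

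With the replicate block the counts were 9 in the F test, 6 for d6 G+H+ against ESCs (5 lower and Phf1 higher), 1 at d3, 1 at d4, 0 at d5 and between the d6 populations, 3 for ADE_EPZ, 0 for ES_EPZ and 0 between these regimens. In d6 G+H+ against ESCs and in the comparisons with Control the numbers share only a label (lowest correlation -0.06). Of 33 untreated arrays 26 correlated best with their own number, and 8 of 9 in the EPZ6438 series.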
